A study of Mus musculus with 2 samples.

Results

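The genes described here are 10 that make fatty acids from citrate or control that synthesis: Acly, Acaca, Acacb, Fasn, Scd1, Elovl6, Me1, Thrsp, Srebf1 and Mlxipl. They were chosen by name, with an earlier comparison of the same libraries known, so their values are given as a description and no test is run on them. They are 10 of the 55536 annotated genes in the tables. At 1 TPM or more in both libraries were 9 of them, all but Elovl6, beside 11990 of all genes (TPM, the share of transcripts after correction for length). Total RNA from heart tissue of female B6CASTF1/J mice, the first-generation cross of C57BL/6J with CAST/EiJ, was sequenced at 18 to 20 months of age after removal of ribosomal RNA. The labels give 1 group of 2 libraries, replicate 2 and replicate 1, with no treatment, and 300 ng of RNA with added ERCC spike-in RNAs for each. The labels call them biological replicates 2 and 1, each with technical replicate number 1. The biosamples are separate but share 1 donor entry, which does not say if these are different animals, so their spread may be technical. Reads of both parental genomes were quantified against the C57BL/6J reference, build mm10. Values come from the authors' gene and transcript tables in the column layout of RSEM, and, where named, from a further transcript table in the layout of kallisto.

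De novo lipogenesis turns surplus carbohydrate into fat. Citrate leaves the mitochondrion, ATP citrate lyase splits it into acetyl-CoA, acetyl-CoA carboxylase makes malonyl-CoA from that, and fatty acid synthase builds palmitate from both with NADPH. Liver and adipose tissue are its main sites; heart muscle burns fatty acids, and its malonyl-CoA is known mainly as the brake on their entry into mitochondria.

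Expected counts of annotated genes totalled 36736112 in replicate 2 and 35720930 in replicate 1, and at those depths 3 counts, the most that a count of 0 allows, are 0.0817 CPM (library-scaled counts) in replicate 2 and 0.0840 CPM in replicate 1. Heart muscle markers stood at like levels. The 8 cardiomyocyte genes (Myh6, Myl2, Tnnt2, Tnni3, Actc1, Ryr2, Pln and Mb) summed to 40076 TPM in replicate 2, against 41942 TPM in replicate 1 in the RSEM-layout table, and the kallisto-layout table put replicate 2 above replicate 1 by 1.02-fold. Fat markers did not. All 15 adipocyte genes were higher in replicate 2, and 12 of them averaged 1 TPM or more. Among all genes with a mean of 1 TPM or more, 54.0% were higher at all. Of the 12 adipocyte genes at that mean, 8 were higher by 2-fold or more, against 3.30% of all genes. The 15 summed to 768 and 322 TPM in replicates 2 and 1, and none was at 0 in both. Adipoq, the fat hormone adiponectin, had 25.1 TPM (722 counts) in replicate 2, against 2.28 TPM (60 counts) in replicate 1. Lep, leptin, was at 4 counts in replicate 2 and 3 counts in replicate 1. In bulk tissue fewer cells of a type and less RNA per cell cannot be told apart.

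Across the 10 genes the difference between the libraries was uneven. By log2(TPM + 0.1), replicate 2 over replicate 1, 6 of the 10 were higher in replicate 2 by 2-fold or more and none was lower by as much. Among all 12510 genes with a mean of 1 TPM or more, 3.30% were 2-fold or more higher and 0.919% were 2-fold or more lower. Fasn, Elovl6 and Scd1 were also 4-fold or more higher, against 1.29% of all genes. Higher at all were 8 of the 10, against 54.0% of all genes. The median log2 ratio was 1.72 over the 10 genes and 0.02 over all genes. In the kallisto-layout table, 6 of the 10 were again higher by 2-fold or more and none lower, where the shares of all genes were 4.16% and 0.833%. There 1.41% of all genes were higher by 4-fold or more and 64.4% higher at all. Because the genes were chosen with this contrast known, nothing is read from these shares.

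**Figure D1:**
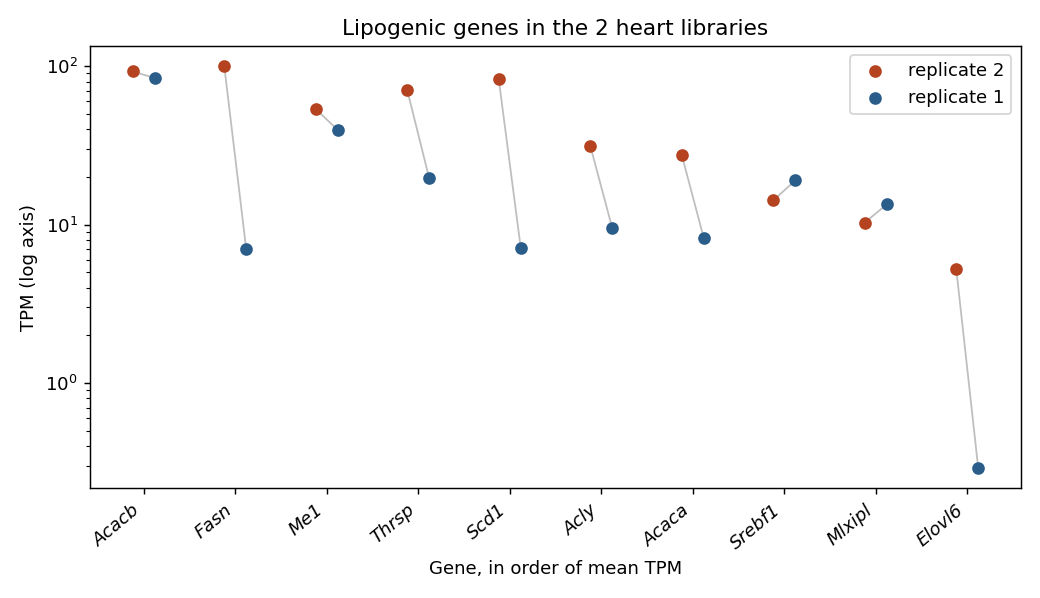
TPM of each gene (vertical axis, log scale) in replicate 2 (left point) and replicate 1 (right point) of the aged female heart, joined by a line and in order of mean TPM. Acacb and Me1 lie close together in the libraries, Fasn at 100.2 and 7.01 TPM and Scd1 at 82.5 and 7.15 TPM lie far apart, and the lines of Srebf1 and Mlxipl slope the other way.

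Acly encodes ATP citrate lyase (chr11:100476353-100528000, minus strand). It had 31.5 TPM from 3537 counts in replicate 2 and 9.52 TPM from 920 counts in replicate 1. The count ratio, scaled by library totals, was 3.74 (95% exact interval 3.48 to 4.02), and this and later such intervals cover counting error only. Replicate 2 was the higher library, and the gene's transcripts differed in how far.

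One internal exon separates the main Acly transcripts. Acly-203 includes a 30-nt exon that is wholly coding, exon 14 of 29 at chr11:100503160-100503189 on the minus strand, and Acly-201 omits it. The sequences show the transcript with and without it, 30 nt of neighbouring exon on each side, with the optional exon in capitals.

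Acly-203: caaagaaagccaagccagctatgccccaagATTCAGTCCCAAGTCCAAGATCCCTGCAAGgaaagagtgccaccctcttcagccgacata

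Acly-201: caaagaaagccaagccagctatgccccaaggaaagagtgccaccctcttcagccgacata

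Acly-201, without the exon, had 20.0 TPM from 2526 counts in replicate 2 and 2.19 TPM from 263 counts in replicate 1, a TPM fold of 9.13. For Acly-203, with the exon, the values were 6.73 TPM from 858 counts and 4.92 TPM from 594 counts in replicates 2 and 1, a TPM fold of 1.37. The form with the exon thus made up 25.2% of the pair in replicate 2 and 69.2% in replicate 1. The kallisto-layout table gave 25.4% and 64.1% in the same order. The leading form therefore differed between the libraries in both tables.

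**Figure D2:**
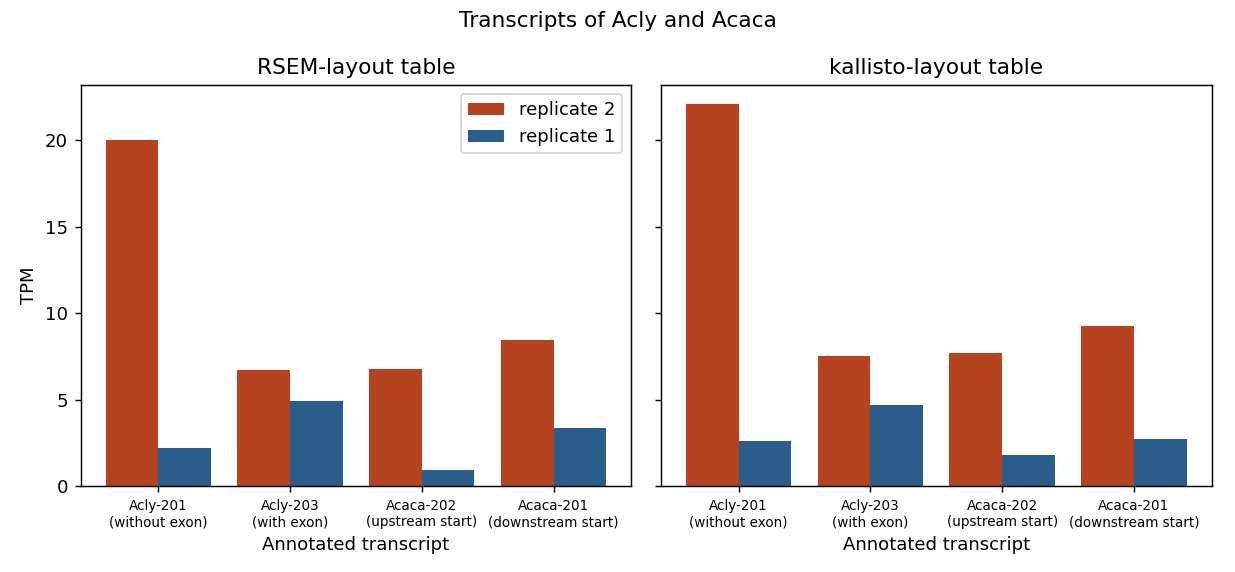
TPM (vertical axis, from 0) of the main annotated transcripts of Acly and Acaca in replicate 2 and replicate 1, from the RSEM-layout table (left panel) and the kallisto-layout table (right panel). Acly-201 stands at 20.0 TPM in replicate 2, against 2.19 TPM in replicate 1, while Acly-203 with the extra exon differs far less.

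The next step has a pair of enzymes. Acaca, on chr11:84129672-84401651, plus strand, encodes the cytosolic carboxylase ACC1, which feeds fatty acid synthesis. Acacb, on chr5:114146535-114250761, plus strand, encodes ACC2 of the outer mitochondrial membrane, whose product restrains carnitine palmitoyltransferase. Acaca had 27.5 TPM (4417 counts) in replicate 2 and 8.25 TPM (1167 counts) in replicate 1, a count ratio of 3.68 (95% interval 3.45 to 3.93). Acacb had 92.7 TPM (22332 counts) and 84.1 TPM (19567 counts) in replicates 2 and 1, a count ratio of 1.11 (1.09 to 1.13). Acacb was the higher carboxylase in each library, with 77.1% of the summed TPM of the pair in replicate 2 and 91.1% in replicate 1. Its excess over Acaca was 3.37-fold in replicate 2 and 10.2-fold in replicate 1.

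Acaca is annotated with several starts. Acaca-202, from the start at 84173122, had 6.81 TPM (1887 counts) in replicate 2 and 0.97 TPM (256 counts) in replicate 1, or 7.02-fold. Acaca-201, from 84195438, had 8.48 TPM (2228 counts) and 3.35 TPM (835 counts) in replicates 2 and 1, or 2.53-fold. In the kallisto-layout table these folds were 4.30 and 3.40. Acaca-202 thus had the larger fold of the pair in both tables, with a narrower gap in the kallisto-layout table. Short transcripts that start between them, at 84179831 to 84179858, had 9.86 TPM (250 counts) in replicate 2 and 3.36 TPM (62 counts) in replicate 1. Their fold was 2.93, and 3.93 in the kallisto-layout table. Transcripts from a start upstream of all these had 2 counts in replicate 2 and 1 count in replicate 1. Of the 31-nt words of Acaca transcripts, 33.4% occur in other genes, most of them in Gm5182, a processed pseudogene counted at 664 reads in replicate 2 and 234 in replicate 1, so reads may be split between them. Acacb had no such words. Acacb-202 carried 90.3% of the Acacb TPM in replicate 2 and 92.6% in replicate 1, and Acacb-201, from a start farther downstream, had 0 counts in both in the RSEM-layout table.

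Fasn encodes fatty acid synthase, which makes palmitate (chr11:120805846-120824547, minus strand). It differed more between the libraries than any enzyme above, with 100.2 TPM from 24208 counts in replicate 2 and 7.01 TPM from 1484 counts in replicate 1. The count ratio was 15.9 (95% interval 15.1 to 16.7). Among 22015 nuclear protein-coding genes Fasn ranked 578 in replicate 2 and 6280 in replicate 1. Its long coding transcripts were Fasn-205, at 46.7 and 2.77 TPM, and Fasn-201, at 43.4 and 2.96 TPM in replicates 2 and 1. The kallisto-layout table put Fasn-205 higher, at 68.2 and 3.79 TPM, and Fasn-201 lower, at 30.3 and 2.10 TPM, so their balance depends on the table. Fasn-202, annotated as a retained intron, held 9.68% of Fasn TPM in replicate 2, from 189 counts, and 14.9% in replicate 1, from 19 counts. No 31-nt word of Fasn occurred in another gene.

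The region before the Fasn start is shown as an example, since lipogenic promoters are known for sites of NF-Y, Sp1, SREBP and ChREBP. Fasn differed 15.9-fold in counts, and Elovl6, which differed 17.7-fold, also had a window. RefSeq windows of 250 bases before a start (GRCm38.p6) were available for 9 of the 10 genes, in 13 windows, and Scd1 had no window. They were searched on both strands for CCAAT, the NF-Y site; GGGCGG, the GC box of Sp1; CACGTG, the E-box; TCACNCCAC, the sterol element; and TATAAA, the TATA box. Of all 32851 windows of that length, 33.8% hold CCAAT, 32.7% GGGCGG, 6.02% CACGTG, 1.05% TCACNCCAC and 12.4% TATAAA. Capitals mark the matches, positions count back from the start with -1 the base before it, and a match is a description of letters only.

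Fasn, chr11:120824548-120824797, minus strand: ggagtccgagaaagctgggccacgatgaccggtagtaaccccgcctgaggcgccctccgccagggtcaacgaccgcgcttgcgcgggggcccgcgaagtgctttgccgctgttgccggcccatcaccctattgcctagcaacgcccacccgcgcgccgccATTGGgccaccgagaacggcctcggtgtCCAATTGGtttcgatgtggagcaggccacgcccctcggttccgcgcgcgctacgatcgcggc

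Fasn holds CCAAT 3 times, at -90, -62 and -59, of which the last pair overlap on opposite strands. None of the other motifs searched occurred in its window. The windows of Elovl6 and Acaca held none of the motifs searched. Of the 13 windows, 7 held CCAAT, 5 GGGCGG, and 1 each the E-box, the sterol element and the TATA box. The TATA box lay in the only Acacb window, which also held CCAAT. That window lies before Acacb-201, which had 0 counts in both libraries in the RSEM-layout table, and the start of Acacb-202 had no window.

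Scd1, the stearoyl-CoA desaturase that puts the double bond into stearate and palmitate, lies on chr19:44394455-44407879, minus strand. It had 82.5 TPM from 8939 counts in replicate 2 and 7.15 TPM from 777 counts in replicate 1, a count ratio of 11.2 (95% interval 10.4 to 12.1). Elovl6, which lengthens palmitate to stearate, lies on chr3:129532355-129638495, plus strand. It had 5.23 TPM from 747 counts in replicate 2 and 0.290 TPM from 41 counts in replicate 1, a count ratio of 17.7 (12.9 to 24.9). Both mRNAs were far higher in replicate 2, and Elovl6 was the lower of them in each library. Elovl6 has the widest interval of the 10 genes, with 41 counts in replicate 1. Scd1-201 carried most Scd1 counts, 8809 in replicate 2 and 768 in replicate 1, and Elovl6-201 most Elovl6 counts, 712 and 36. Among the 22015 ranked genes, Scd1 stood at 693 in replicate 2 and 6217 in replicate 1, and Elovl6 at 7412 and 12770. Of Scd1 words, 8.14% occur elsewhere, mostly in Scd3, which had 0 counts in replicate 2 and 2 counts in replicate 1.

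Me1, cytosolic malic enzyme, supplies NADPH (chr9:86581371-86695953, minus strand). It had 53.6 TPM from 5030 counts in replicate 2 and 39.6 TPM from 3513 counts in replicate 1, a count ratio of 1.39 (95% interval 1.33 to 1.45). Me1 was already well expressed in replicate 1, ranking 1474 of 22015 there and 1052 in replicate 2. Transcript Me1-201 held 99.6% of Me1 TPM in replicate 2 and 99.1% in replicate 1, but 80.1% and 82.5% in the kallisto-layout table. Words in other genes made up 30.0% of Me1, mostly in the pseudogene Gm7049, with 99 counts in replicate 2 and 63 counts in replicate 1.

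Thrsp, the thyroid hormone responsive protein Spot 14, is known from rodent liver and fat for a part in lipogenesis (chr7:97412938-97417730, minus strand). It had 70.5 TPM from 2446 counts in replicate 2 and 19.6 TPM from 644 counts in replicate 1, a count ratio of 3.69 (95% interval 3.38 to 4.03). Nearly all of it, 99.7% in replicate 2 and 99.8% in replicate 1, was Thrsp-201. The count ratio lies beside those of Acly and Acaca and below those of Fasn, Scd1 and Elovl6, whose intervals do not reach it.

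The activators Srebf1 and Mlxipl ran the other way, by less than 2-fold. Srebf1 encodes SREBP-1, the insulin-responsive activator of lipogenic genes (chr11:60199089-60222581, minus strand), and had 14.2 TPM from 925 counts in replicate 2 and 19.0 TPM from 1177 counts in replicate 1. Its count ratio was 0.764 (95% interval 0.700 to 0.834). Mlxipl encodes ChREBP, the glucose-responsive activator (chr5:135089890-135138382, plus strand), and had 10.3 TPM from 736 counts and 13.4 TPM from 873 counts in replicates 2 and 1, a ratio of 0.820 (0.742 to 0.905). Both were lower in replicate 2, in both tables. Srebf1 overlaps Rai1 on the opposite strand, which had 993 counts in replicate 2 and 1143 in replicate 1, and whether counting used strand is not given in the sources used here. Of Srebf1 TPM, 50.5% in replicate 2 and 52.7% in replicate 1 lay on protein-coding transcripts. TPM corrects for length, so short transcripts with few counts weigh heavily in such shares. The noncoding Srebf1-204, of 367 nt, held 26.3% of Srebf1 TPM in replicate 2 from 30 of the 925 counts. In replicate 1 it held 35.0% from 50 of the 1177 counts. For Mlxipl the protein-coding shares of TPM were 80.9% and 89.4%, but 44.7% and 41.3% in the kallisto-layout table.

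Srebf1 is known for an upstream promoter that gives SREBP-1a and a downstream one that gives SREBP-1c, the form of liver and fat. The coding upstream transcript Srebf1-201, starting at 60220604, had 5.21 TPM (644 counts) in replicate 2 and 6.37 TPM (747 counts) in replicate 1. The coding transcript from the downstream start, Srebf1-207, begins 10139 nt further along and had 1.41 TPM in replicate 2, against 2.44 TPM in replicate 1. In the kallisto-layout table it stood at 2.11 and 2.13 TPM in replicates 2 and 1, so its difference between the libraries depends on the table. A short noncoding transcript of that start, Srebf1-208, ran the other way, with 1.85 TPM (32 counts) in replicate 2, against 0.260 TPM (4 counts) in replicate 1. Summed over that start, replicate 2 had 3.26 TPM from 160 counts and replicate 1 had 2.70 TPM from 214 counts. TPM and counts thus differed in direction. In the kallisto-layout table the sums were 5.05 TPM (216 counts) and 3.11 TPM (195 counts) in replicates 2 and 1. A noncoding transcript of 367 nt that starts still farther upstream, Srebf1-204 at 60222581, had 3.74 TPM in replicate 2 (30 counts) and 6.65 TPM in replicate 1 (50 counts), but was at 0 in both in the kallisto-layout table. The windows before the starts of the coding transcripts are shown.

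Srebf1 upstream, chr11:60220628-60220877, minus strand: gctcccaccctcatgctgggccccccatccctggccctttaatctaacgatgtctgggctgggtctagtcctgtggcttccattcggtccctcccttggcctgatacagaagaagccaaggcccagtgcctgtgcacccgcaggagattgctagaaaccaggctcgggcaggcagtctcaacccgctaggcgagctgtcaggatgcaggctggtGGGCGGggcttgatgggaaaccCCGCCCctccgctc

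Srebf1 downstream, chr11:60210472-60210721, minus strand: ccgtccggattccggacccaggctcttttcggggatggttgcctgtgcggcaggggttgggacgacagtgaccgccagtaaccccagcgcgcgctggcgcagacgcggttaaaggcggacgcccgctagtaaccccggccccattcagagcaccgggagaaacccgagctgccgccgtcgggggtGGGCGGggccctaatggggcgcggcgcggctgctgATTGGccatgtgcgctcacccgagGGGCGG

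The upstream window held GGGCGG at -36 and -14. The downstream window held it at -65 and -6, with CCAAT at -30. TCACNCCAC and CACGTG occurred in neither window.

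Mlxipl has an upstream start known in mouse fat for a short, potent form of ChREBP, and a downstream one for the long form. Transcripts from the downstream start, 135106891 to 135106918, had 8.98 TPM (716 counts) in replicate 2 and 11.8 TPM (851 counts) in replicate 1, which was 86.8% and 88.1% of the gene. Mlxipl-210, which starts 17028 nt upstream at 135089890, had 0 counts in both libraries and both tables. That annotated transcript is only 412 nt long, which limits what its count says about the start. The windows before both starts follow.

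Mlxipl downstream, chr5:135106641-135106890, plus strand: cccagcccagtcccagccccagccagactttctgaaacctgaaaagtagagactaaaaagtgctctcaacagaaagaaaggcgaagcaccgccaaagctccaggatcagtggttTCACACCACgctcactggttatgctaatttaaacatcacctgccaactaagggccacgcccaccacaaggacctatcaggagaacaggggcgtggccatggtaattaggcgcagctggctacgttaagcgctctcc

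Mlxipl upstream, chr5:135089640-135089889, plus strand: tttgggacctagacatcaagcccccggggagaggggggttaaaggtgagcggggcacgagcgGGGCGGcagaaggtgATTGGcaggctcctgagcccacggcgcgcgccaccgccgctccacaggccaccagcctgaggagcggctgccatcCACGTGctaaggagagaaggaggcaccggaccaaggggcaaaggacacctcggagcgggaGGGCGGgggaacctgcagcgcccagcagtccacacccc

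The downstream window held TCACNCCAC at -136. The upstream window held CACGTG at -98, CCAAT at -173 and GGGCGG at -188 and -38.

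By mean TPM over the libraries the order was Acacb at 88.4 ± 6.07 (SD, n = 2, as for all means here), Fasn at 53.6 ± 65.9, Me1 at 46.6 ± 9.93, Thrsp at 45.1 ± 36.0 and Scd1 at 44.8 ± 53.3. Acly followed at 20.5 ± 15.5, then Acaca at 17.9 ± 13.6, Srebf1 at 16.6 ± 3.37, Mlxipl at 11.9 ± 2.15 and Elovl6 at 2.76 ± 3.49. Of the 9 neighbouring pairs, 7 overlapped between libraries, and the steps from Srebf1 to Mlxipl and from Mlxipl to Elovl6 did not. Fasn led in replicate 2, ahead of Acacb, and Acacb led in replicate 1, where Fasn was ninth. The spread was narrow for Acacb, Me1, Srebf1 and Mlxipl, and wide for the other 6 genes.

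Which genes kept their level after scaling to fat markers differed between Adipoq and the sum of the 15 adipocyte genes. Per TPM of Adipoq, Scd1 was 3.28 in replicate 2 and 3.14 in replicate 1, Fasn 3.99 and 3.07, and Elovl6 0.208 and 0.127. Divided by Adipoq, these 3 genes had folds of 1.05 to 1.64, beside an 11.0-fold difference in Adipoq itself. In replicate 1 Adipoq rested on 60 counts and Elovl6 on 41, so folds per Adipoq carry counting error, for which no interval was computed. Acacb was 3.69 per TPM of Adipoq in replicate 2 and 36.9 in replicate 1, and Srebf1 was 0.567 and 8.33. Per 1000 TPM of the cardiomyocyte sum, Acacb was 2.31 in replicate 2 and 2.01 in replicate 1, Me1 1.34 and 0.943, Srebf1 0.355 and 0.453, and Mlxipl 0.258 and 0.319. These 4 genes thus stayed within 1.42-fold of their level per muscle marker, while Fasn was at 2.50 and 0.167. Acly, Acaca and Thrsp had folds of 0.300, 0.302 and 0.327 per Adipoq and 3.46, 3.49 and 3.77 per cardiomyocyte sum. Per sum of the 15 adipocyte genes, which differed 2.39-fold itself, the grouping turned round. There Acly, Acaca and Thrsp lay nearest to no difference, with folds of 1.38, 1.39 and 1.51, while Scd1, Fasn and Elovl6 had folds of 4.83, 5.98 and 7.55. On that scale Me1 had a fold of 0.567, Acacb 0.461, Mlxipl 0.324 and Srebf1 0.314. The fat markers' part in the result was not tested.

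**Figure D3:**
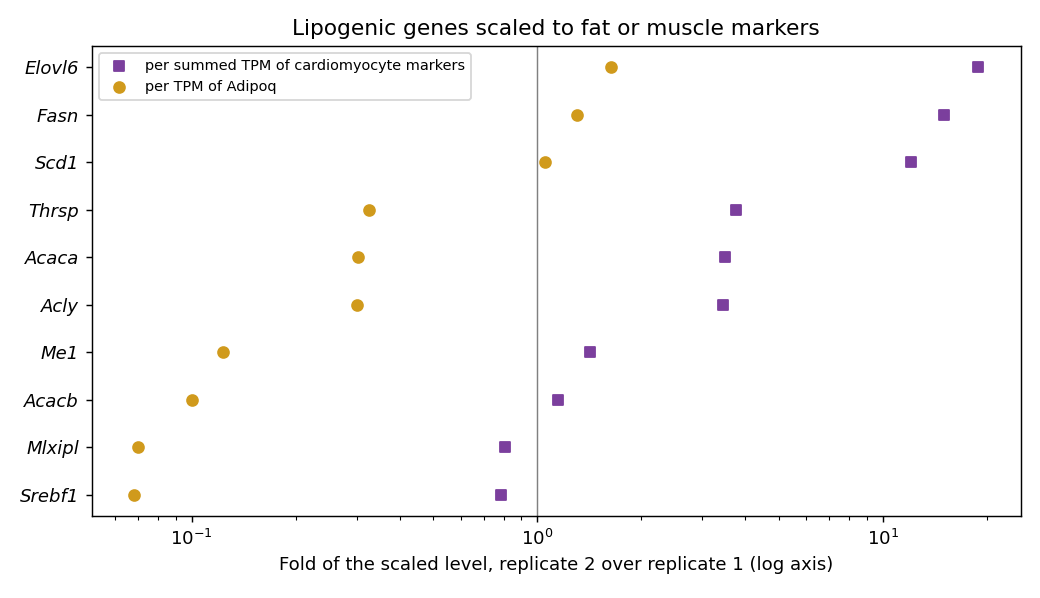
Fold of each gene's level, replicate 2 over replicate 1, after division by Adipoq TPM (circles) or by the summed TPM of 8 cardiomyocyte markers (squares), on a log axis with a line at no difference. Scd1 is at 1.05 and Fasn at 1.30 per Adipoq, and Acacb is at 1.15 per cardiomyocyte sum. Division by the adipocyte sum, not plotted, gave Scd1 4.83 and Fasn 5.98.

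Brown fat markers were mixed, with 4 of 6 genes higher in replicate 2 and sums of 90.7 and 27.0 TPM in replicates 2 and 1. Ucp1, which makes brown fat mitochondria give off heat, had 41.8 TPM in replicate 2, against 3.52 TPM in replicate 1, while Prdm16, a brown fat regulator, had 4.06 and 7.20 TPM and Zic1 was at 0 counts and 1 count. In the adipocyte list, Cidec, a lipid droplet protein, had 20.7 TPM in replicate 2 and 2.21 in replicate 1. Fabp4, also made by heart vessel cells, differed less, at 301 TPM in replicate 2, against 207 TPM in replicate 1, and held 39.3% and 64.3% of the adipocyte sum. Of the 8 liver genes, Alb, Fgb and Serpina1c were at 0 counts in both libraries and the other 5 were higher in replicate 2. Apoa1 had 1 count in replicate 2 and 0 in replicate 1, and only 2 of the 8 averaged 1 TPM or more. List sums were 26.3 and 7.81 TPM in replicates 2 and 1. Most of the sum in replicate 2 was Cyp2e1, at 19.2 TPM, against 2.59 TPM in replicate 1. Of the 7 alveolar genes, Sftpc was at 0 in both and the other 6 were higher in replicate 2, with sums of 8.03 and 4.96 TPM. Only 2 of the 7 averaged 1 TPM or more. Lamp3 had 2 counts in each library, and was lower in replicate 2 in the kallisto-layout table. Sftpb had 2 counts and 0, while Sftpa1 had 113 counts in replicate 2 and 1 count in replicate 1. Among all genes averaging 1 TPM or more, 54.0% were higher in replicate 2 at all. Airway and B cell markers stood further apart, with airway markers (7 of 7 genes higher, Scgb1a1, Scgb3a2 and Bpifa1 at 0 in replicate 1) summing to 283 TPM in replicate 2, against 1.06 TPM in replicate 1 and B cell markers (6 of 6 higher) to 137 and 10.7 TPM. The 5 erythroid genes ran the other way, at 11149.9 TPM in replicate 2, against 23409 TPM in replicate 1. Their part in the result was not tested.

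Of the pathway's other genes, 88 in 9 lists, 81 had a mean of 1 TPM or more. Of these 81, 7 were higher in replicate 2 by 2-fold or more and 1 was lower, beside 3.30% and 0.919% of all genes. Slc25a1, the mitochondrial citrate exporter, had 14.7 TPM (651 counts) in replicate 2 and 2.47 TPM (108 counts) in replicate 1. Acsl5, a fatty acid activating enzyme, had 13.1 and 3.73 TPM, and Txnip, a target of ChREBP, 206 and 91.7 TPM in replicates 2 and 1. Aacs, Scd4, Elovl3 and Lpin3 were the other 4 of the 7 that were higher. The citrate exporter is the step just before Acly.

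Medians over all genes of a list lay between -0.10 and 0.28 on the log2 scale, beside 0.02 for the background. Brackets count the genes 2-fold or more higher among only those of the list averaging 1 TPM or more, beside 3.30% of all genes. The median was 0.28 for acetyl-CoA supply (2 of 5 genes 2-fold higher), 0.18 for NADPH supply (0 of 9), 0.23 for triglyceride synthesis (1 of 11), 0.05 for other desaturases and elongases (2 of 12) and 0.06 for carboxylase control (0 of 5). It was -0.06 for SREBP processing (0 of 7), 0.13 for lipogenic factors (1 of 11), and -0.10 for cholesterol synthesis (0 of 16). Fatty acid activation had -0.07 in the RSEM-layout table and 0.34 in the kallisto-layout table. Cholesterol synthesis, at 0.06 in the kallisto-layout table, also changed sign. Insig1, an SREBP target and inhibitor, had 10.6 TPM in replicate 2, against 5.82 TPM in replicate 1, while Scd2 had 3.64 and 3.76 TPM and Dgat2, which makes triglycerides, 147 and 139 TPM.

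**Figure D4:**
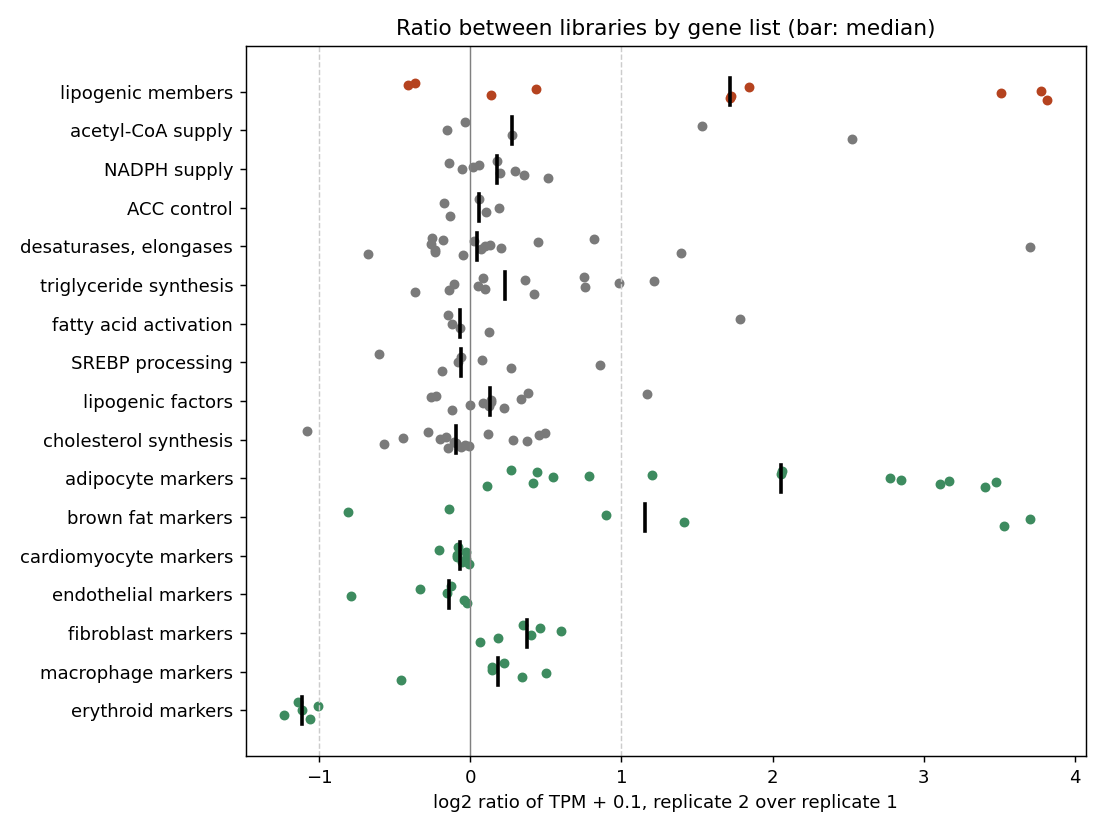
Log2 ratio of TPM + 0.1, replicate 2 over replicate 1 (horizontal axis), for each gene of each list (rows), with a bar at the list's median over all its genes and dashed lines at 2-fold. The lipogenic genes spread from Srebf1 at -0.41 to Fasn at 3.82, while the other pathway lists centre near 0.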

How the data were processed

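The 10 genes and all gene lists were chosen with earlier results of these data known. Expected counts, TPM and transcript percent were deposited by the authors in gene and transcript tables with the column layout of RSEM, per the file headers. Estimated counts and TPM of a further transcript table were deposited by the authors in the layout of kallisto, and its transcripts were summed per gene. Genome mm10 and annotation GENCODE M21 are named per the deposited readme (program versions: not given in the sources used here). TPM is a relative abundance, and spike-ins count in its scale.

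From these tables, log2 ratios of TPM + 0.1 between replicate 2 and replicate 1 were computed, which understates the change of low genes, and a difference of 2-fold or more was counted among genes averaging 1 TPM or more. With 1 library on each side no test was made. Count ratios used expected counts rounded to whole numbers, scaled by the totals of annotated genes, with exact conditional binomial intervals. Reads are not independent molecules, so intervals cover counting error only. The ratio and count calculation was tested on simulated data. Named were the 10 genes, genes of the lists, and the 5 nuclear protein-coding genes outside every list, with a mean of 10 TPM or more, nearest to the median log2 ratio of the 10. Alternatives were pseudocounts of 1 and 0.01, posterior mean TPM, the kallisto-layout table, TPM over nuclear protein-coding genes, CPM, ERCC scaling, edgeR 4.0.16 TMM factors, DESeq2 1.42.0 median-of-ratios factors, no filter on low values, other fat-marker sums, and leaving out a library. Words of 31 nt shared between genes were counted on the annotated transcripts. Python 3.11.15 with pandas 2.3.3 and SciPy 1.17.1 was used. The values of 1 gene of the pathway lists are not reported here.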

Additional observations from a re-analysis of the deposited data

How the results depend on the processing

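Over 9 alternatives no gene's log2 ratio changed sign, from Fasn at 3.66 to 3.98 and Elovl6 at 2.27 to 4.13 down to Srebf1 at -0.47 to -0.35 and Mlxipl at -0.37 to -0.15. The median log2 ratio of the 10 genes was 1.88 with CPM, and 0.44 without Fasn, Elovl6 and Scd1, an alternative chosen after seeing the data. The background count of genes 2-fold higher was 267 with a pseudocount of 1 and 1942 with no filter, and that of genes 2-fold lower was 58 and 826. Which genes lay within 2-fold between the libraries after scaling to fat markers turned with the marker. Per adipocyte sum they were 4 of the 10, Acly, Acaca, Thrsp and Me1. Per Adipoq they were 3, Fasn, Scd1 and Elovl6. A fat-marker sum without Fabp4, Plin4, Aqp7, Lipe and Pparg was also chosen after seeing the data. Per that sum they were 2, Fasn at 1.59-fold and Scd1 at 1.28-fold, with Elovl6 at 2.00-fold. Acly, Acaca and Thrsp had folds of 0.367, 0.370 and 0.400 there, beside 0.300, 0.302 and 0.327 per Adipoq. The cause was not tested. No paired analysis was possible because the labels give 1 group. With 2 libraries, the spread rests on a single difference, and depth limits chiefly Elovl6.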

Other observations

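Among other nuclear protein-coding genes with a mean of 10 TPM or more, those with the log2 ratio nearest to the median of 1.72 were Gpd1, Depp1, Pdk4, Cebpb and Fkbp5, likeness being the absolute difference in log2 ratio over 2 libraries. Gpd1 had 62.4 TPM in replicate 2, against 18.8 TPM in replicate 1. Pdk4, the kinase that restrains pyruvate dehydrogenase, had 482 and 143 TPM in replicates 2 and 1. Depp1 had 32.7 and 9.82 TPM, Cebpb 62.1 and 18.3 TPM, and Fkbp5 40.1 and 11.7 TPM in the same order.

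Of the 9 other genes of NADPH supply, none differed by 2-fold or more in mRNA, beside 3.30% of all genes higher and 0.919% lower. G6pdx, the first enzyme of the pentose phosphate pathway, had 4.11 TPM in replicate 2, against 2.85 TPM in replicate 1, and the mitochondrial enzyme Idh2 had 851 and 882 TPM.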
